A study of Mus musculus with 7 samples.

Results

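Resident macrophage receptors were followed in the inguinal fat pad of the mouse, a subcutaneous white fat depot. They are 10 genes taken by symbol from the deposited count table: Cd163, Mrc1, Folr2, Timd4, Adgre1, Cd68, Mertk, Marco, Siglec1 and Csf1r. They make up 10 of the 55487 genes in the table, and all 10 passed the filter on low counts, as did 26393 genes in all. RNA sequencing was done on 7 libraries from NOD/ShiLtJ mice, an inbred strain that develops autoimmune diabetes. The design text gives a blood glucose of 190 to 230 mg/dL for the mice that were injected. In 3 libraries, called sham here, the treatment was KRBH, a bicarbonate-buffered salt solution. In the other 4, called imBAT after their titles, it was CB-100, the fraction above 100 kDa of buffer conditioned by brown adipocytes. CB-100 was given subcutaneously for 7 days at 1.5 mg/kg body weight, and tissue was taken 2 to 8 weeks afterwards. The labels do not give the age or sex of the mice, the week at which each was sampled, or whether every library is a different animal. The p-values therefore measure only the spread between these libraries, which may be partly technical.

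Tissue-resident macrophages are long-lived phagocytes that clear dying cells, spent proteins and haemoglobin, and that depend on CSF1R signalling for survival. In fat, those beside blood vessels typically carry CD163, CD206 (the product of Mrc1) and folate receptor beta (Folr2). The inguinal pad of the mouse also encloses a lymph node, whose sinus macrophages typically carry CD169 (Siglec1), MARCO and TIM-4 (Timd4). F4/80 (Adgre1) and CD68 are general macrophage markers of the mouse, and MERTK is an uptake receptor for dying cells. The labels do not say whether the lymph node was left in the tissue.

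Total counts ran from 41025786 to 44983250 in the sham libraries and from 43360208 to 63650016 in the imBAT libraries. White adipocyte genes, the defining markers of the labelled tissue, were present in every library. Summed over 16 genes they came to 2839 to 5869 CPM (counts scaled to library size by edgeR's TMM method) in sham and 18659 to 42872 CPM in imBAT. Summed over 20 genes, T cell genes came to 2462 to 3117 CPM in sham and 474 to 1376 CPM in imBAT. For 18 B cell genes the sums were 3933 to 4285 CPM and 1026 to 2113 CPM. Ptprc, the pan-leukocyte antigen CD45, averaged 1392 ± 72.4 CPM (SD, n = 3) in sham and 459 ± 144 CPM (SD, n = 4) in imBAT, with a log2 fold change of -1.60 and an adjusted p of 0.00237. The share of leukocyte and adipocyte marker transcripts in the libraries thus differed between the groups, and its part in the results for the receptors was not tested. In bulk tissue, fewer cells of a type and less RNA per cell cannot be told apart. imBAT replicate 2 stood apart for these genes: it was the lowest of the 4 imBAT libraries for 9 of the 10 receptors, against 26.7% of all genes tested, and it had the largest total count.

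The receptors did not all move together. Cd163, Mrc1, Folr2 and Adgre1 rose by 6.70-fold to 11.7-fold in imBAT and Mertk rose by 1.81-fold. Timd4, a receptor for dying cells, was 1.79-fold lower. Cd68, Siglec1, Csf1r and Marco did not pass the test. Counts were compared with edgeR's quasi-likelihood test, with Benjamini-Hochberg adjustment over all genes tested and a threshold of 0.05, and fold changes are imBAT over sham. By that rule 5 of the 10 receptors were higher, against a background of 24.3% of all genes, and 1 of 10 was lower, against 19.3%. In either direction 43.5% of all genes were called, so a call by itself does not set these genes apart. The groups did not overlap for 6 receptors, 5 with imBAT above sham and 1 below. The background for that is 52% of all genes in either direction, 26.8% above and 25.2% below. Over all genes tested the log2 fold change had a median of -0.01, with 6407 genes higher and 5084 lower. Upper-quartile scaling moved that median to -0.25 and the split to 4722 higher and 8180 lower. No receptor changed its call or its sign under it. The shift is downward, so small positive fold changes are the ones whose sign depends on the scaling.

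**Figure D1:**
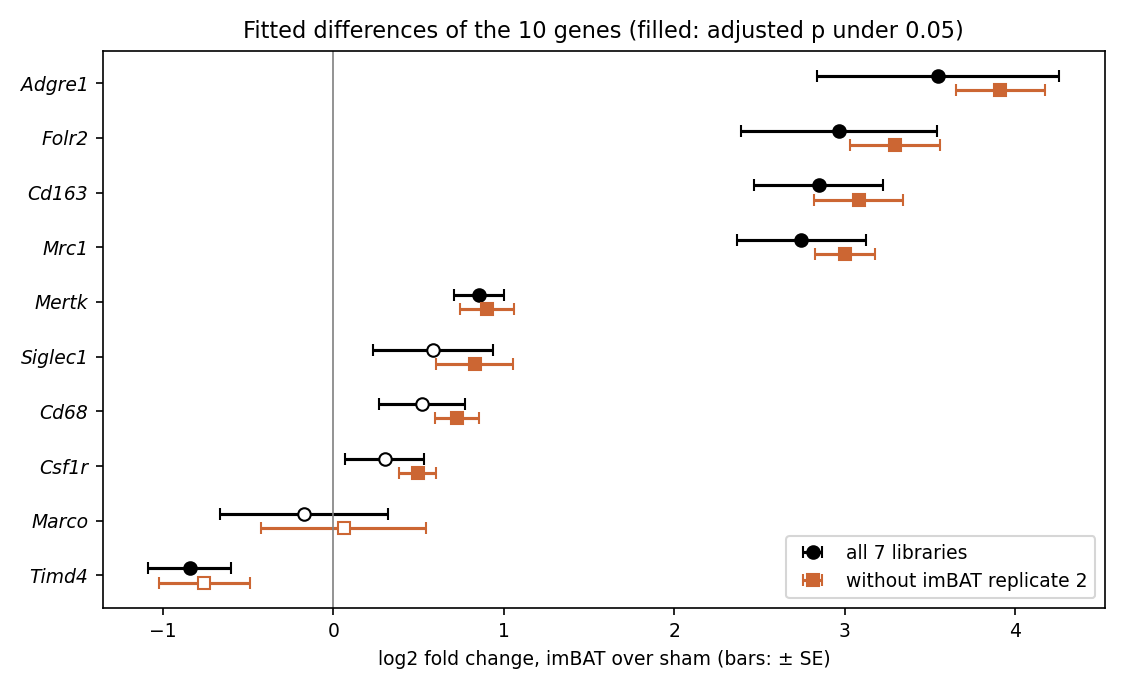
Log2 fold change of imBAT over sham for each of the 10 receptors on the horizontal axis, with bars of 1 standard error: black circles for 3 sham and 4 imBAT libraries, orange squares without imBAT replicate 2, filled where the adjusted p is under 0.05. With all libraries, Adgre1 (3.55), Folr2 (2.97), Cd163 (2.85) and Mrc1 (2.75) lie far to the right, Mertk (0.86) is higher, Timd4 (-0.84) is lower, and the other 4 did not pass the test.

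Upstream sequence is shown for 4 receptors that differed in response: Cd163 and Mrc1, which rose by similar factors, Timd4, which was lower, and Marco, which did not pass the test. Each window holds 250 bases before and 50 bases after a RefSeq transcript start on build GRCm38.p6. A window was found for Cd163, Mrc1, Folr2, Timd4, Cd68, Mertk and Marco. Capitals mark matches, on either strand, to 3 motifs: the core GAGGAA bound by the myeloid factor PU.1, the AP-1 site TGACTCA, and TGCTGA, the half-site of MAF-family factors. The windows printed are chr6:124304401-124304700 on the plus strand for Cd163, chr2:14229164-14229463 on the plus strand for Mrc1, chr11:46810549-46810848 on the plus strand for Timd4 and chr1:120504975-120505274 on the minus strand for Marco.
Cd163: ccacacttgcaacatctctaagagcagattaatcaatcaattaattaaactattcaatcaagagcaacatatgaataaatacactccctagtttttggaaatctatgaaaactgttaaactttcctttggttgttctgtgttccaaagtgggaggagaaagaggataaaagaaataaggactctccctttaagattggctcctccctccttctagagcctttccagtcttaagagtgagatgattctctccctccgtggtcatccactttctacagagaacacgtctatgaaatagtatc
Mrc1: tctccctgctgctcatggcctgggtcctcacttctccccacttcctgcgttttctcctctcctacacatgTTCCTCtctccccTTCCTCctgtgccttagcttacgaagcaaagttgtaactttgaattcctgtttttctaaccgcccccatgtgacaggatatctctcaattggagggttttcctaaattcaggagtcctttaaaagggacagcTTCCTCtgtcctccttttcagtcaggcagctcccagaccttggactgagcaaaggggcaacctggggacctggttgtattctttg
Timd4: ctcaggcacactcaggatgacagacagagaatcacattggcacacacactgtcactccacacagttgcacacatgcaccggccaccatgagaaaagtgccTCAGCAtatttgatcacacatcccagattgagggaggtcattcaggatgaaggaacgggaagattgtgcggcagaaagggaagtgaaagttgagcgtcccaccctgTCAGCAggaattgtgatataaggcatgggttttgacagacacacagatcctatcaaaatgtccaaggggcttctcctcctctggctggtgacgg
Marco: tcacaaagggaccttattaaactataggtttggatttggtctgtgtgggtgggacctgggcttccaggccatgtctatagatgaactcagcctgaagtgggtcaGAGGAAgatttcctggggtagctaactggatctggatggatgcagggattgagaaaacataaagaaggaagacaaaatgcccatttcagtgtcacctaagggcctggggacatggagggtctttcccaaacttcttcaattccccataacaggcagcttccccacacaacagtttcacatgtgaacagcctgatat
GAGGAA was found in 28.3% of all 32851 promoter windows of this length, TGACTCA in 5.2% and TGCTGA in 19.5%. Mrc1 held 3 matches to GAGGAA, at -180, -167 and -35 from the start, and Marco held 1, at -146. Timd4 held 2 matches to TGCTGA, at -150 and -44. Cd163 held none of the 3 letter strings in this window, although its fold change was close to that of Mrc1. Among the receptors not printed, Cd68 held GAGGAA and TGACTCA. Folr2, unlike the others, had more than 1 window, from 101845282 and from 101857141 on chr7. It held TGCTGA in both and TGACTCA in the former only. A match is a description of letters and not of binding.

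The receptors typical of vessel-associated macrophages rose by similar factors. Cd163 (ENSMUSG00000008845, chr6:124304656-124330527 on GRCm38) encodes the receptor for haemoglobin bound to haptoglobin. It read 22.1, 10.5 and 19.1 CPM in sham replicates 1 to 3, and 143, 60.8, 151 and 141 CPM in imBAT replicates 1 to 4. The groups did not overlap, and the lowest imBAT library was replicate 2. The mean went from 17.2 ± 6.01 CPM (SD, n = 3) to 124 ± 42.4 CPM (SD, n = 4). The log2 fold change was 2.85 ± 0.38 (SE; 7.20-fold; edgeR adjusted p = 0.00145).

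Mrc1 (chr2:14229392-14332057) encodes the macrophage mannose receptor, which takes up glycoproteins ending in mannose. Its sham libraries read 33.6, 26.5 and 26.7 CPM and its imBAT libraries 226, 83.3, 281 and 186 CPM. No imBAT library came near the sham range, and replicate 2 was again the lowest of the 4. The mean went from 28.9 ± 4.02 to 194 ± 83.3 CPM (SD), a log2 fold change of 2.75 ± 0.38 (SE; 6.70-fold; edgeR adjusted p = 0.00159).

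Folr2 (chr7:101839988-101857194) encodes folate receptor beta, a lipid-anchored folate-binding protein of macrophages. It was the least abundant of the 10, with 1.22, 0.743 and 1.24 CPM in sham, which rest on 55, 37 and 64 counts. In imBAT it read 10.2, 2.09, 12.3 and 8.87 CPM, from 554, 128, 499 and 370 counts. All 4 imBAT libraries were above all 3 sham libraries, with replicate 2 nearest to them. The log2 fold change was 2.97 ± 0.57 (SE; 7.81-fold; edgeR adjusted p = 0.00477). Of its exon bases, 975 overlap the opposite-strand gene Gm10602, which had 85 to 113 counts in sham and 133 to 178 in imBAT. The strand setting of the counting is not given in the sources used here, so reads of the overlap cannot be assigned to either gene with certainty.

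Adgre1 (chr17:57358691-57483527) encodes F4/80, an adhesion G protein-coupled receptor used to mark mouse macrophages. The sham libraries read 11.2, 10.0 and 14.2 CPM, and the imBAT libraries 232, 20.3, 175 and 124 CPM. Here the spread within imBAT was widest: replicate 2 lay just above the highest sham library, and the other 3 lay far above it. From 11.8 ± 2.15 CPM (SD, n = 3) the mean went to 138 ± 90.1 CPM (SD, n = 4). Its log2 fold change was 3.55 ± 0.71 (SE; 11.7-fold; edgeR adjusted p = 0.00545), and without imBAT replicate 2 it was 3.91 ± 0.26 (SE; 15.1-fold; edgeR adjusted p = 0.000463).

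**Figure D2:**
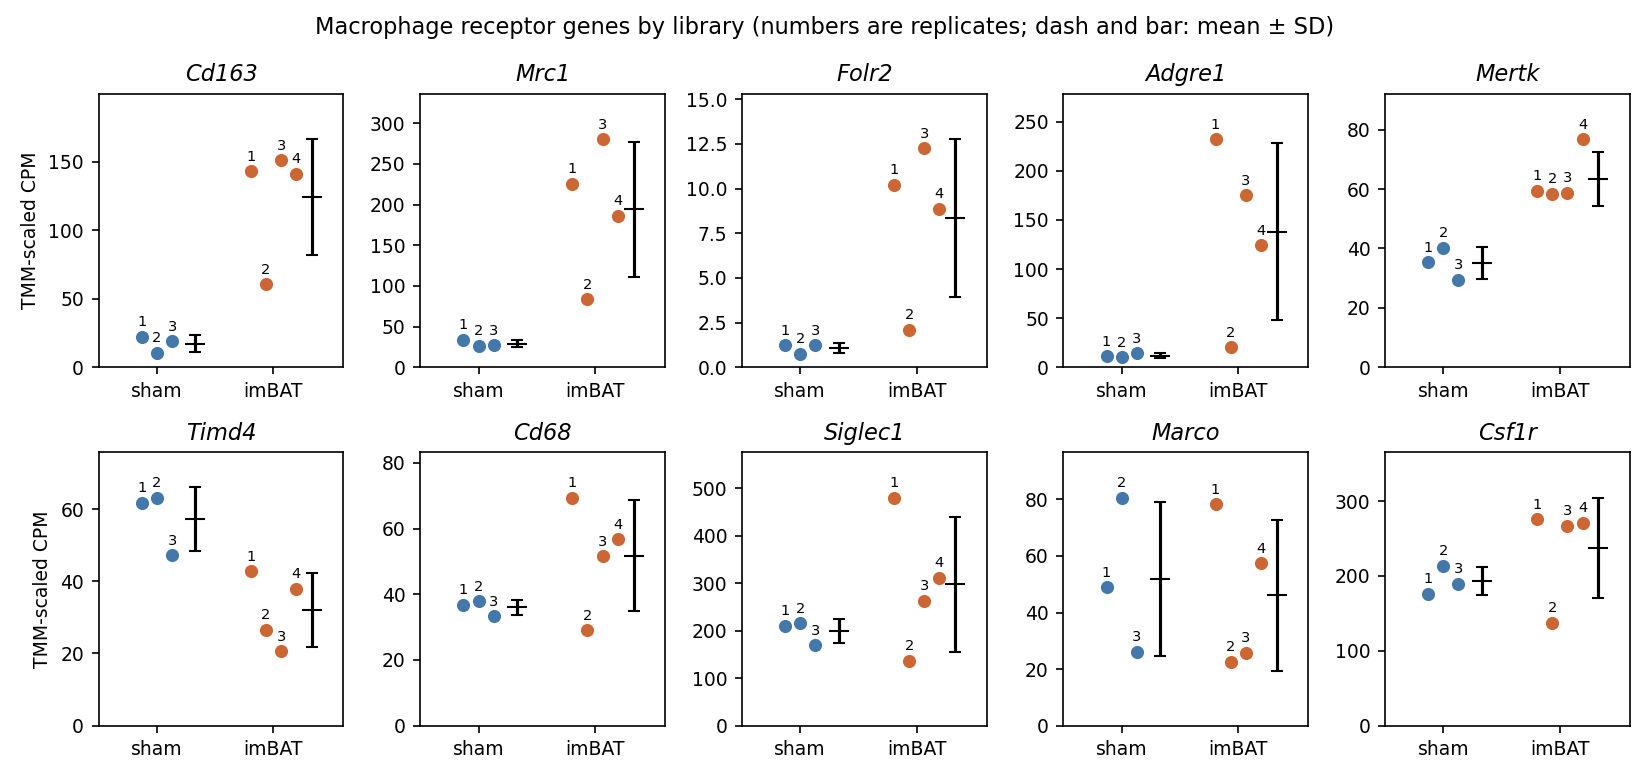
TMM-scaled CPM of each receptor in its own panel, with a vertical axis from 0, 1 numbered point for each of the 3 sham and 4 imBAT libraries, and a dash and bar for the mean ± SD. All imBAT points lie above all sham points for Cd163, Mrc1, Folr2, Adgre1 and Mertk, all lie below for Timd4, and the groups overlap for Cd68, Marco, Siglec1 and Csf1r.

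The receptors for dying cells moved in opposite directions. Mertk (chr2:128698956-128802894) encodes a receptor tyrosine kinase that binds GAS6 and protein S on the surface of dying cells. It read 35.3, 40.2 and 29.5 CPM in sham and 59.4, 58.4, 58.8 and 76.8 CPM in imBAT. The 3 lower imBAT libraries were nearly equal, replicate 4 was higher, and none overlapped sham. The mean went from 35.0 ± 5.36 to 63.3 ± 8.99 CPM (SD), a log2 fold change of 0.86 ± 0.15 (SE; 1.81-fold; edgeR adjusted p = 0.00296). Mertk was the receptor least touched by imBAT replicate 2, with a log2 fold change of 0.90 without it.

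Timd4 (chr11:46810800-46844332) encodes TIM-4, which binds phosphatidylserine directly and tethers dying cells. Its sham libraries read 61.7, 63.2 and 47.1 CPM and its imBAT libraries 42.8, 26.5, 20.6 and 37.9 CPM. Every imBAT library was below every sham library, but sham replicate 3 and imBAT replicate 1 lay close together. The mean went from 57.3 ± 8.87 to 32.0 ± 10.2 CPM (SD), a log2 fold change of -0.84 ± 0.24 (SE; 1.79-fold lower; edgeR adjusted p = 0.0226). This call rested on single libraries: the adjusted p was 0.0665 without sham replicate 1, 0.0758 without sham replicate 2 and 0.0527 without imBAT replicate 2.

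The other 4 receptors did not pass the test with all 7 libraries. Siglec1 (chr2:131069220-131086765) encodes CD169, a lectin for sialic acids. It read 210, 216 and 170 CPM in sham and 480, 137, 263 and 311 CPM in imBAT. Replicate 2 of imBAT lay below all sham libraries and the other 3 above them. The log2 fold change was 0.58 ± 0.35 (SE; edgeR adjusted p = 0.206).

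Csf1r encodes the receptor for CSF1 and IL-34, the growth factors of the macrophage lineage. Its sham libraries read 176, 214 and 189 CPM and its imBAT libraries 275, 138, 267 and 271 CPM. The pattern was that of Siglec1, with replicate 2 below sham and the other 3 imBAT libraries above it. The log2 fold change was 0.30 ± 0.23 (SE; edgeR adjusted p = 0.316). Of its exon bases, 873 overlap Hmgxb3 on the opposite strand, which had 3529 to 3909 counts in sham and 2989 to 5252 in imBAT.

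Cd68 (chr11:69664213-69666153) encodes macrosialin, a glycoprotein of late endosomes and lysosomes. It read 36.8, 37.9 and 33.4 CPM in sham and 69.4, 29.0, 51.6 and 56.8 CPM in imBAT, again with replicate 2 below sham and the rest above. The log2 fold change was 0.52 ± 0.25 (SE; edgeR adjusted p = 0.124).

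Marco (chr1:120474538-120505024) encodes a collagen-like class A scavenger receptor for bacteria and particles. It read 48.8, 80.6 and 26.1 CPM in sham and 78.2, 22.7, 25.8 and 57.5 CPM in imBAT. Each group held both low and high libraries, and the groups overlapped almost fully. The log2 fold change was -0.17 ± 0.49 (SE; edgeR adjusted p = 0.799). The sign of this value depended on the libraries included, with 0.30 without sham replicate 2 and 0.06 without imBAT replicate 2.

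Leaving out imBAT replicate 2 gave 8 of 10 receptors higher and 0 lower. In that comparison 24.8% of all genes were called higher and 19.1% lower, 43.8% in all. Cd68 then had a log2 fold change of 0.72 (edgeR adjusted p = 0.00469), Siglec1 of 0.83 (adjusted p = 0.0219) and Csf1r of 0.49 (adjusted p = 0.00899). Timd4 kept a value of -0.76 and lost its call, and Marco, at 0.06 (adjusted p = 0.929), was not called. Cd163 and Folr2 reached 3.08 and 3.29. Since imBAT replicate 2 was the lowest imBAT library for 9 of the 10 receptors, leaving it out raises their imBAT means by construction. With any other library left out, 5 receptors were called higher. imBAT replicate 1 was the highest imBAT library for 6 of the 10 receptors, against 19.1% of all genes tested.

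**Figure D3:**
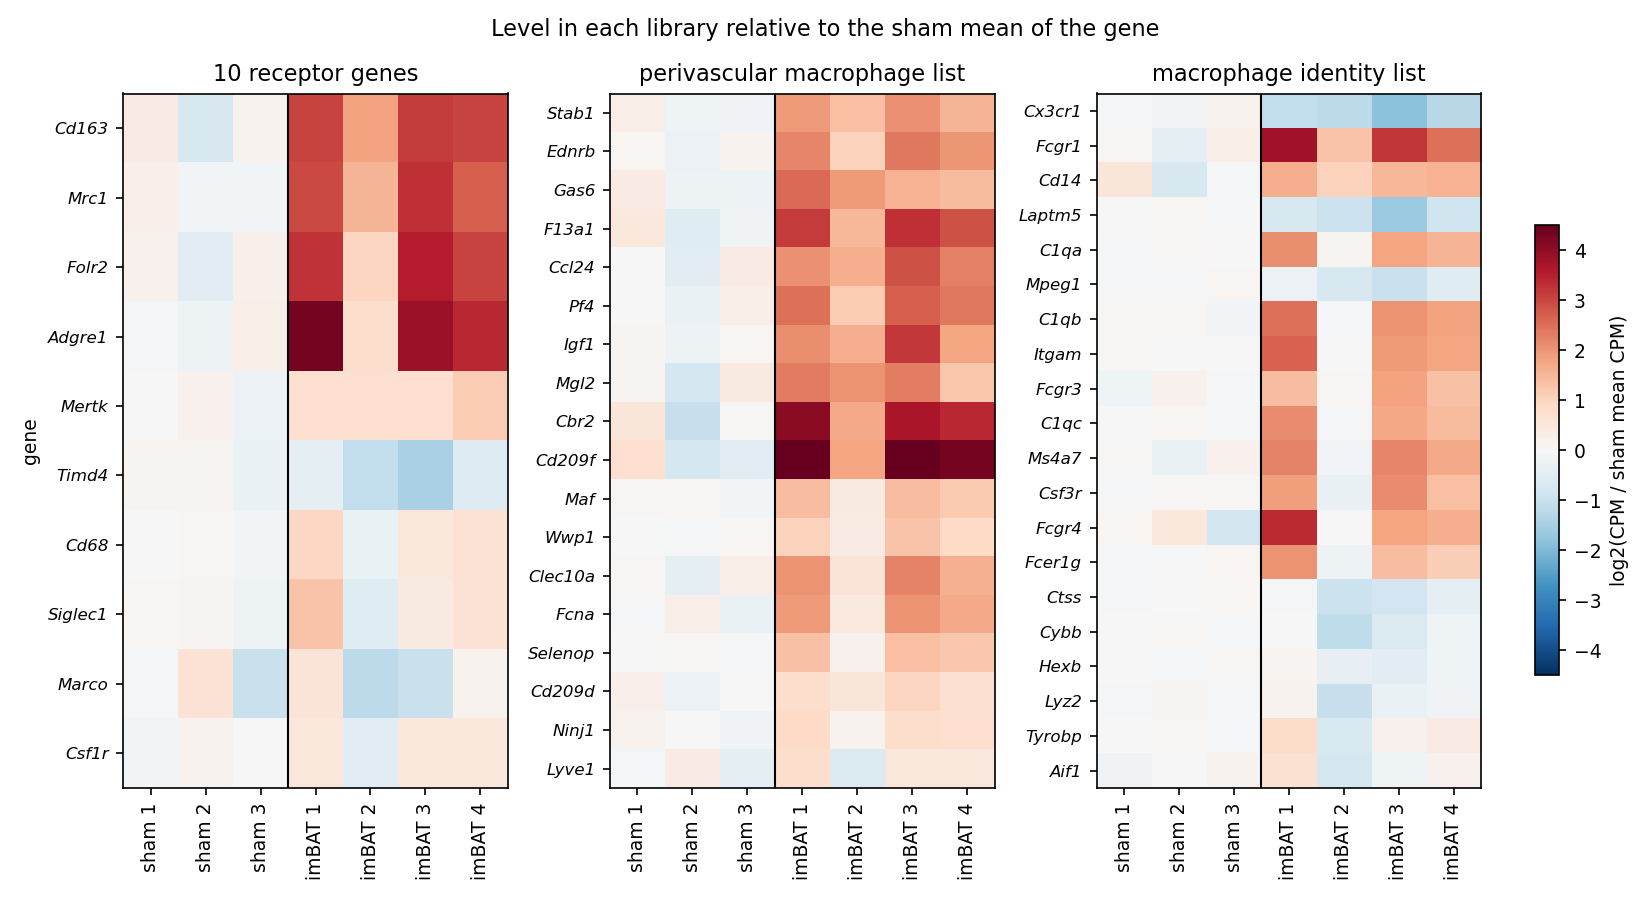
Log2 of the CPM in each library (columns) over the sham mean of the gene (rows), for the 10 receptors, 18 perivascular macrophage genes and 20 macrophage identity genes, red above and blue below the sham mean. In the column of imBAT replicate 2, Cd163, Mrc1, Folr2 and Adgre1 lie between sham and the other 3 imBAT libraries, and Cd68, Siglec1 and Csf1r lie below sham.

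Levels were compared between genes as CPM per kilobase of exon. In sham, Csf1r was highest, with a mean of 33.4 CPM per kb, and Cd68 (28.6), Siglec1 (27.8), Marco (26.9) and Timd4 (26.4) followed it. Csf1r, at 30.5 to 37 CPM per kb, was above Cd68, at 26.6 to 30.1, without overlap. The later neighbours among these 5 overlapped between libraries. All 5 lay above Mertk, which ranged from 6.80 to 9.27 CPM per kb. Mertk was above Mrc1 (4.16 to 5.27) without overlap. Adgre1 (mean 3.65) overlapped both Mrc1 and Cd163 (mean 3.16), Mrc1 was above Cd163 without overlap, and Folr2, at 0.48 to 0.80 CPM per kb, was below all others.

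In imBAT the order of the means began with Adgre1 at 42.6 CPM per kb, Siglec1 at 41.7, Csf1r at 41.2 and Cd68 at 41.1. These 4 did not differ beyond their spread, since Adgre1 alone ran from 6.26 to 71.8. Mrc1 followed at 30.5, Marco at 23.9, Cd163 at 22.7, Timd4 at 14.7 and Mertk at 14.6, each overlapping its neighbours. Folr2 was still lowest, at 1.35 to 7.94 CPM per kb, below Mertk at 13.5 to 17.7. F4/80 thus stood with the low receptors in sham and in imBAT replicate 2, where it was above Folr2 alone, and among the 4 highest in the other 3 imBAT libraries. By its mean, Timd4 went from the upper group to a level near Mertk.

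**Figure D4:**
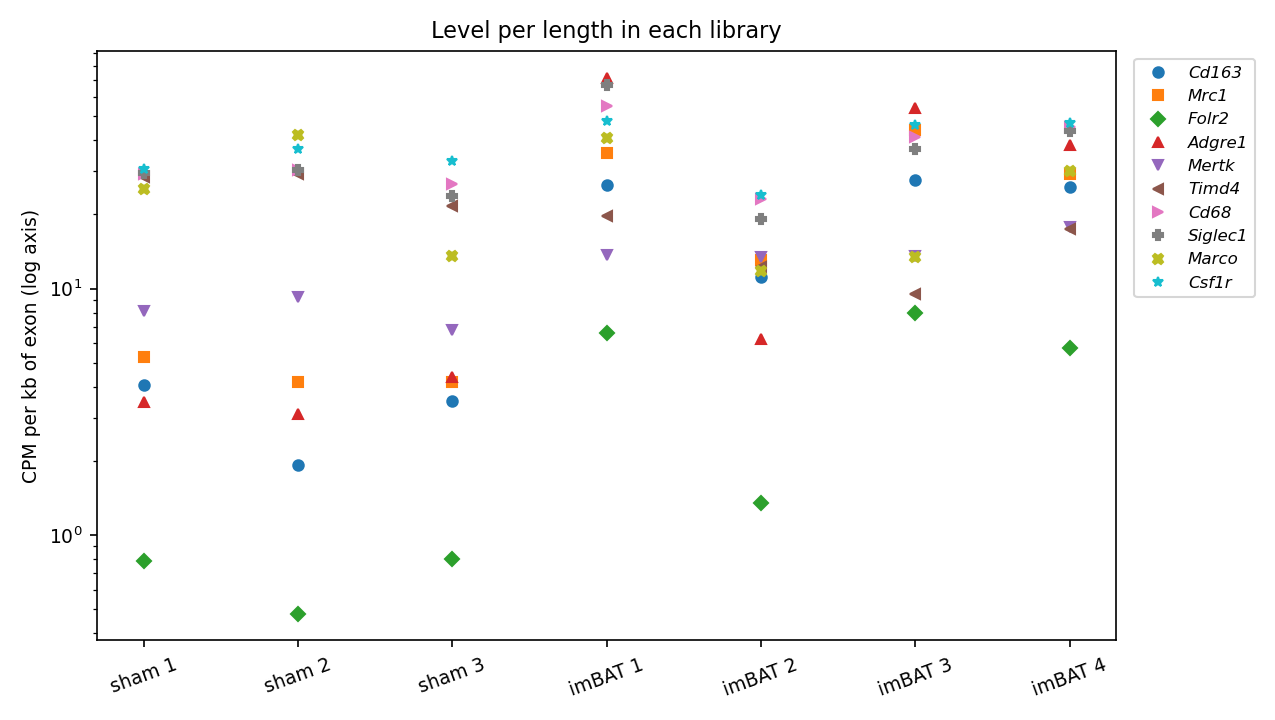
CPM per kilobase of exon on a log axis for each receptor, 1 symbol per receptor, in each of the 3 sham and 4 imBAT libraries. The 5 highest receptors in sham lie close together above Mertk, while in imBAT Adgre1 spans 6.26 to 71.8 CPM per kb and overlaps most of the others.

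Within a library, the receptors were also set against Adgre1, which asks whether each moved by another amount than F4/80. For Timd4 the log2 ratio to Adgre1 ran from 1.73 to 2.66 in sham and from -3.09 to 0.39 in imBAT. For Csf1r it ran from 3.74 to 4.41 in sham and from 0.24 to 2.76 in imBAT. Cd68, Marco and Siglec1 shared that pattern, so the ratios of 5 of 9 receptors were lower in every imBAT library than in any sham library. Of all genes tested, 69% had such a ratio and 0.11% had the reverse, so this count is no result about the receptors. Each of these 5 had an exact permutation p of 0.0571 (two-sided, 3 against 4 libraries), the smallest this design can give, and 0.103 after Benjamini-Hochberg adjustment over the 9 ratios. Mertk overlapped (exact permutation p = 0.114), and so did Cd163, Mrc1 and Folr2, whose mean log2 ratios differed by -0.28, -0.48 and -0.37 between the groups (exact permutation p from 0.286 to 0.686). Fitted over all genes with the Adgre1 count as library size, Timd4 was the only receptor of 9 that passed edgeR's test, at -3.40 ± 1.16 (SE; adjusted p = 0.0483), against a background of 9.06% of genes called in either direction, 9.02% lower and 0.0379% higher. That count was 8 without imBAT replicate 2 and 0 when any other library was left out. With a library left out, the share of all genes called was not computed, so these counts are no result about the receptors. Every gene in a fit relative to Adgre1 shares the spread of Adgre1 itself, so its p-values are not independent between genes and may be too small. Set against Ptprc in the same way, 9 of 10 receptors were higher and Timd4, at 0.80, was not called. Since 79.6% of all genes were called higher by that measure, 0.102% lower and 79.7% in all, the count is no result about the receptors.

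The pathways of these receptors were described with lists of related genes, by counts and by the median of the log2 fold change. Each pathway list also holds the receptors that belong to it, so their own values enter its counts and median. The background for these counts, and for those of the cell type lists below, is 24.3% of all genes higher and 19.3% lower. The ligands of Mertk and a sister receptor rose with it. Of 5 TAM receptor and ligand genes, 4 were higher, Mertk itself among them, and 0 lower, with a median of 1.38. Gas6, the bridging ligand, went from 146 ± 35.6 to 562 ± 213 CPM (SD; log2 fold change 1.94). Pros1, which encodes protein S, rose by 1.40 and Axl, a sister receptor, by 1.38 on the log2 scale. Tyro3, at 0.08 (edgeR adjusted p = 0.818), did not pass the test.

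Among 22 receptors and bridges of dying-cell uptake, 13 were higher and 6 lower, with a median of 0.69. Itgb5 (1.98), an integrin subunit for the bridge MFG-E8, Lrp1 (1.90), an endocytic receptor, and Stab1 (1.75), a phosphatidylserine receptor, were among those that rose. The genes that fell held Timd4 and its TIM-family relatives Havcr1 (-1.74) and Havcr2 (-1.44). Stab2 (-1.47), Elmo1 (-1.22), an engulfment adaptor, and Cd300lf (-0.86) fell as well. The complement genes C1qa, C1qb and C1qc were higher by 1.54, 1.82 and 1.51, although imBAT replicate 2 read 70.7, 46.7 and 57.5 CPM. That was just above the highest sham library for C1qa (68.5 CPM) and within the sham range for C1qb and C1qc.

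Of 20 scavenger receptor genes, 10 were higher and 3 lower, with a median of 0.52. Cd36, the fatty acid and lipoprotein receptor, rose by 2.72 and Scarb1, the high-density lipoprotein receptor, by 1.15 on the log2 scale. Cd36 is also abundant in adipocytes and endothelium. Msr1, the closest class A relative of Marco, read 5.94 ± 0.198 CPM in sham and 6.29 ± 1.65 CPM in imBAT (SD; edgeR adjusted p = 0.798). Lamp1 and Lamp2, lysosomal relatives of Cd68, rose by 0.96 and 1.26. Their relative Lamp3 fell by 1.94 on the log2 scale, from 2.46 CPM in sham to 0.64 CPM in imBAT. The other genes called lower were Cd6 (-1.62) and Stab2 (-1.47).

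Mannose receptor family members and macrophage lectins gave 10 of 16 higher and 1 lower, with a median of 1.25. Mrc2, the collagen-binding relative of Mrc1 found on fibroblasts, rose by 2.27, and Mgl2, a galactose-type lectin, by 2.03. The C-type lectins Cd209g and Cd209f had the steepest rises, at 4.45 and 4.20. Cd209g went from 1.54 ± 0.845 CPM (SD, n = 3) to 33.6 ± 18.9 CPM (SD, n = 4). Ly75, an endocytic receptor of dendritic cells, was the member that fell, at -1.41. Cd209 family genes are close copies of each other, so counts may be split between them.

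Of 8 sialic acid-binding lectins tested, 1 was higher and 4 lower, with a median of -0.97. Cd22 (-1.75) and Siglecg (-1.82), both inhibitory lectins of B cells, fell with the B cell genes. Cd33 fell by 0.74 on the log2 scale. Siglece, a myeloid inhibitory lectin, rose by 3.75, from 1.06 ± 0.240 to 14.3 ± 10.4 CPM (SD), with imBAT replicate 2 at 1.49 CPM beside a highest sham library of 1.34 CPM.

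For folate, 2 of 8 receptor and carrier genes were higher and 2 lower, near the background shares, with a median of 0.39. Slc46a1, the proton-coupled folate transporter, rose by 2.06 beside Folr2. Izumo1r, a folate receptor family gene of regulatory T cells, fell by 1.70 on the log2 scale. For haem handling, the pathway of Cd163, 9 of 11 genes were higher and 0 lower, with a median of 1.11. Hp, the haptoglobin whose complexes CD163 binds, rose by 2.38 and Slc48a1, a haem transporter of lysosomes, by 1.47. Hp is also made by adipocytes.

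Around Csf1r, 7 of 24 ligand, signalling and lineage genes were higher and 11 lower, with a median of -0.10. Both ligands rose: Il34 went from 7.18 ± 0.493 to 17.0 ± 1.35 CPM (SD; log2 fold change 1.24) and Csf1 from 62.5 ± 8.06 to 93.3 ± 16.0 CPM (SD; 0.58). The lineage factor Maf was higher by 1.15, while Irf8, another, was lower at -1.37. Cebpa, which adipocytes also express, was higher by 2.84. Fgr, a myeloid Src-family kinase, and Csf2rb, a subunit of the GM-CSF receptor, fell by 1.15 and 0.78. Spi1, which encodes PU.1, read 48.2 ± 2.33 CPM in sham and 43.2 ± 18.0 CPM in imBAT (SD; edgeR adjusted p = 0.674). Among the adhesion receptors of leukocytes, 3 of 7 were higher, Adgre1 itself among them, and 2 lower, with a median of -0.05. Adgrg1 rose by 1.26, Adgre4 fell by 0.73, and Adgrg5 fell by 1.63.

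Markers of cell types that could carry the receptors moved unequally. Of 20 macrophage identity genes, 11 were higher and 3 lower, with a median of 1.27, and their sum was 2070 to 2222 CPM in sham and 1252 to 2789 CPM in imBAT. The sums thus overlapped, although Fcgr1 (2.95), an antibody receptor of macrophages, and Cd14 (1.45), the lipopolysaccharide co-receptor, were higher without overlap of the groups. For most genes of this list called higher, C1qb and C1qc among them, the groups overlapped. imBAT replicate 2 was the lowest imBAT library for 16 of the 20 genes, against 26.7% of all genes tested. Cx3cr1 (-1.31), the fractalkine receptor, and Laptm5 (-1.02), a lysosomal protein of many leukocytes, were lower.

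Perivascular macrophage genes gave 17 of 18 higher and 0 lower, with a median of 1.84, and summed to 782 to 923 CPM in sham and 1643 to 3132 CPM in imBAT. Gas6 and Stab1 carried much of these sums, at 548 and 248 CPM in imBAT replicate 2. In that library Cbr2 read 24.6 CPM and Cd209f 13.3 CPM. Which cells carried the genes of this list was not tested. F13a1, coagulation factor XIII A, rose by 2.84, close to the values of Cd163 and Mrc1, and Cbr2 rose by 3.43. Ednrb, an endothelin receptor, rose by 1.98. Lyve1, at 37.9 ± 10.3 and 49.1 ± 17.6 CPM (SD), did not pass the test (edgeR adjusted p = 0.371). Lyve1 is also a gene of lymphatic endothelium. imBAT replicate 2 was the lowest imBAT library for 16 of these 18 genes, as it was for 9 of the 10 receptors.

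Lymph node sinus and splenic-type macrophage genes showed 3 of 11 higher and 3 lower, with a median of -0.06. These counts were near the background shares of 24.3% higher and 19.3% lower. Their sums overlapped, at 173 to 260 CPM in sham and 180 to 264 CPM in imBAT. Spic, the factor of iron-recycling macrophages, fell by 1.47 and Vcam1, an adhesion molecule, by 0.90. Nr1h3, the oxysterol receptor LXR-alpha, rose by 1.43, and the lectin Cd209g, also on this list, by 4.45. Monocyte genes gave 5 of 14 higher and 4 lower, with a median of 0.21. Among the higher ones were Ly6c2 (1.98) and Vcan (3.22), a matrix proteoglycan that stromal cells also make. Both are risers from a list that moved in both directions. Dendritic cell genes gave 1 of 15 higher and 9 lower, with a median of -0.98.

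Markers of other cell types also differed between the groups. T cell genes were lower in 20 of 20, with a median of -1.51, and B cell genes in 16 of 18, with a median of -1.73. White adipocyte genes were higher in 16 of 16 (median 3.11), fibroblast genes in 9 of 10 (2.21), mammary epithelium genes in 10 of 10 (1.99) and blood endothelium genes in 9 of 10 (1.00), with the remaining 1 lower. Lymphatic endothelium genes were lower in 4 of 8, with 0 higher and a median of -0.56. imBAT replicate 2 was the lowest imBAT library for 12 of 16 adipocyte genes, 0 of 20 T cell genes and 1 of 18 B cell genes. The part of these shifts in the values of the 10 receptors was not tested.

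**Figure D5:**
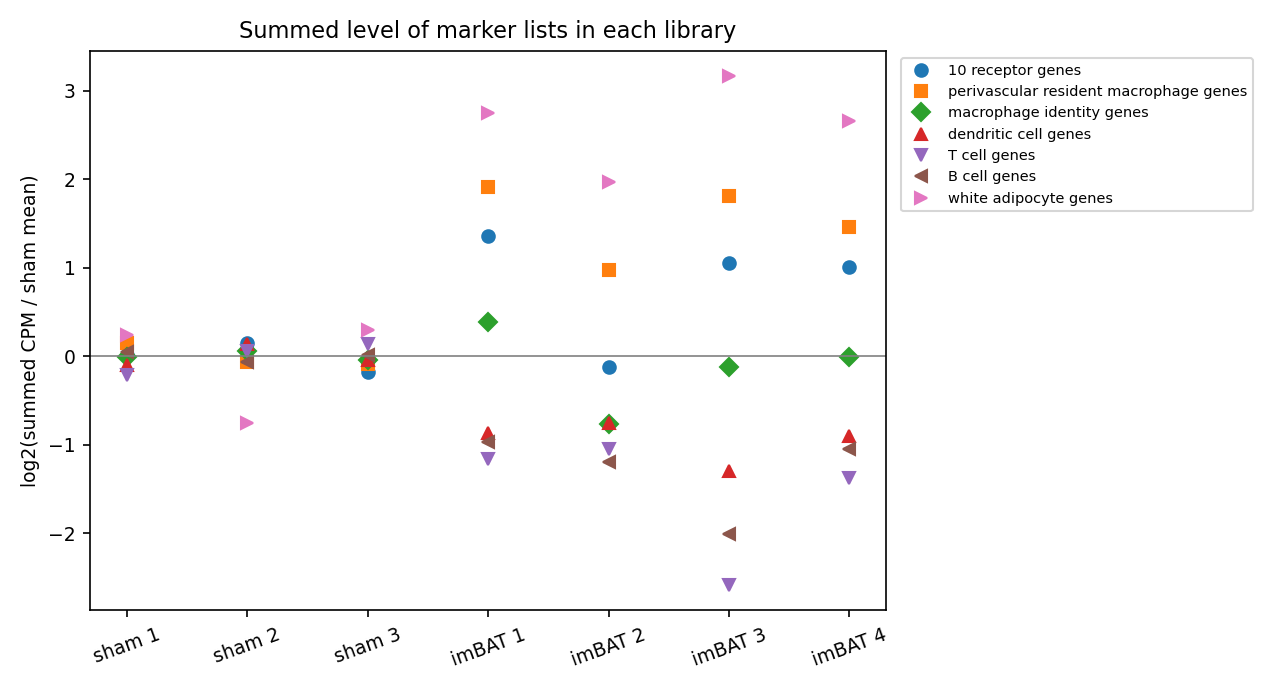
Log2 of the summed CPM of a gene list over its mean in sham, in each of the 3 sham and 4 imBAT libraries, with 1 symbol per list for the 10 receptors and 6 marker lists. The perivascular and adipocyte sums are higher in every imBAT library, the T cell, B cell and dendritic cell sums are lower in every one, and the macrophage identity sums lie on both sides of the sham mean. The receptor sum lies below it in imBAT replicate 2 and above it in the other 3.

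Patterns most like those of 4 receptors were taken from Pearson correlation of log2 CPM over the 7 libraries, as a description. The libraries form 2 groups that set much of each value. For Cd163 the nearest genes were Ly6c1, Hacd4 and Mmp2, each with r of 1.00. Ly6c1 went from 23.8 ± 6.67 to 121 ± 35.8 CPM (SD), with imBAT replicate 2 at 67.2 CPM. For Timd4 they were Jaml, Zc3h10 and Pqbp1, each with r of 0.99. For Csf1r they were Naa20 (0.98), Ufl1 (0.97) and the complement gene C3 (0.96), which shared its low value in imBAT replicate 2, where C3 read 1748 CPM while the remaining imBAT libraries read 3564 to 3630 CPM. For Marco they were Kctd12 (0.93), Rsl24d1 (0.91) and Gmpr2 (0.90), none of which passed the test between the groups.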

How the data were processed

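Gene counts in 7 libraries were used as the authors deposited them, in 1 table of 55774 rows, of which 287 repeated an identifier with identical counts and were dropped. Per the labels' protocols, STAR 2.7.9a served as aligner, on the primary assembly of Ensembl release 101. The submitters' processing notes also name, with no role, Salmon 1.5.2, limma, edgeR, Subread and featureCounts 2.0.3. The sources used here give no strand or multimapping setting. Total counts of 41025786 to 63650016 per library leave small counting error for all receptors but Folr2.

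Groups came from the treatment label, and replicates are numbered in accession order as names only. Counts were scaled with TMM, filtered with edgeR's filterByExpr (minimum count 10) and tested with edgeR 4.0.16 in R 4.3.3 (robust quasi-likelihood F test, group as the only term, 5 residual degrees of freedom). The standard error is the log2 fold change divided by the square root of F. Levels per kilobase use union exon lengths from GENCODE M21 (GRCm38), which held 55227 of 55487 identifiers. Promoters are from RefSeq. The numbers in the titles were not taken to pair the libraries. Alternatives were other scalings, other filters, DESeq2 1.42.0, limma 3.58.1 (voom with quality weights), a blocked fit, a looser threshold and leaving out each library. All 10 receptors, Ptprc, the smallest-p members (up to 4) of each related list, pathway-list genes that went against the rest, and the 3 most correlated genes of 4 receptors (mean at least 5 CPM) were named. Csf1, Spi1, Irf8, Maf, C1qa, C1qb, C1qc, Tyro3, Msr1, Lamp1, Lamp2, Cd209f, Cbr2, Lyve1 and Vcam1 were named after their values were seen. The receptors and lists were chosen with earlier results of these data known.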

Additional observations from a re-analysis of the deposited data

Results flagged for a closer look

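The genes looked at were 85 of those named or considered, without Cd6 and Lamp3. Of these, 10 had an imBAT library set apart from its nearest neighbour. The gap took up more of the group's range than Dixon's critical value for 4 samples allows. Chance flags about 1 in 20 such groups, and 8 of the 10 were imBAT replicate 2. Of the receptors, imBAT replicate 2 was low for Cd163, with 60.76 CPM where its 3 fellows had 141 to 151 CPM, and for Csf1r, with 137.8 CPM where they had 267 to 275 CPM. Mertk was high in imBAT replicate 4, with 76.8 CPM beside 58.4 to 59.4 CPM in the rest.

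Among related genes, imBAT replicate 2 was low for Msr1 (3.827 CPM), Ly6c2 (13.98 CPM), Naa20 (16.85 CPM), Ufl1 (29.95 CPM), C3 (1748 CPM) and Ly6c1 (67.22 CPM). Naa20, Ufl1, C3 and Ly6c1 had been picked for their likeness to Csf1r or Cd163, so they are no separate evidence. Cebpa was high in imBAT replicate 3, at 1078 CPM.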

How the results depend on the processing

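Of 150 values of a receptor's fold change under another setting, the looser threshold included, 136 kept sign and call. The 5 calls of higher receptors became 8 without imBAT replicate 2 and ranged from 5 to 8 over the libraries left out. The 1 lower call, Timd4, ranged from 0 to 1 over the same libraries. All genes called ranged from 7519 to 11403, lowest without sham replicate 2. Marco changed sign to 0.40 with limma, 0.30 without sham replicate 2 and 0.06 without imBAT replicate 2, without a call, and ranged from -0.55 to 0.30 over the libraries left out. The cause was not tested. Cd68 was called with limma (0.62, adjusted p = 0.0396).

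With the title number as a replicate block, the lower calls came to 0 (Timd4, adjusted p = 0.0683), Marco changed sign to 0.029, and Cd68 (0.71) and Csf1r (0.49) were called. imBAT replicate 2 is alone in its block there. Deviations of same-numbered libraries correlated at -0.01, 0.11 and 0.10. Sham replicates 1 and 2 correlated best with their own number and sham replicate 3 with another. Since not every pair was above 0.1, the numbers were not taken to pair the samples.

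Relative to Adgre1, the 1 call became 8 with the replicate block, 5 at an adjusted p under 0.10 and 0 with the filter of 1 CPM in 3 libraries, and ranged from 0 to 8 over the libraries left out. Cd163 relative to Adgre1 changed sign to 0.23 without sham replicate 1 and to 0.19, 0.12 and 0.03 without imBAT replicates 1, 3 and 4, with no call, and ranged from -0.74 to 0.23 over all libraries left out. Relative to Ptprc, the 9 calls ranged from 8 to 10. The share of all genes called was not computed for these settings, so the counts are no result about the receptors. The cause of these shifts was not tested. Depth limits mainly Folr2 in sham, at 37 to 64 counts.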
